A study of Mus musculus with 30 samples.

Results

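The genes described here are 10 feedback regulators of mitogen-activated protein kinase (MAPK) signalling: 6 dual-specificity phosphatases (*Dusp1*, *Dusp4*, *Dusp5*, *Dusp6*, *Dusp10* and *Dusp16*) and 4 Sprouty and Spred genes (*Spry2*, *Spry4*, *Spred1* and *Spred2*). They are 10 of the 56941 Ensembl genes counted, of which 51948 could be given a symbol, and each symbol matched 1 Ensembl gene. The set was chosen by symbol after *Dusp1* had been seen to lie lower in cannabidiol (CBD)-treated cells than in vehicle at 6 h and higher at 24 h, and the question is whether the other 9 genes share that opposite change. *Dusp1* was therefore selected on its own values, which are given as a description with no test, and tests are given for the other 9 genes only.

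The libraries are 3′ mRNA-Seq of mHypoA-2/12, an immortalized line made from adult mouse hypothalamus. The line was first grown in DMEM with fetal bovine serum, and the methods of the study name no serum in the treatment medium. Cells were cultured with CBD, a non-psychotropic compound of cannabis, at 0.325, 0.75, 1.5 or 3 µM, or with vehicle only (labelled CTR), for 6 h or for 24 h, all in DMEM with GlutaMAX holding 0.1% DMSO. These make 10 groups of 3 libraries, 30 in all, and every culture was trypsinized and pelleted before RNA isolation. Nothing in the labels says that the 3 libraries of a group came from separate cultures, so p-values measure the spread between these libraries, which may be technical. All libraries come from 1 cell line, and the 15 libraries of 6 h and the 15 of 24 h cannot be told apart from any difference in culture or run between the sets.

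MAPK pathways pass signals from receptors through Ras and Raf to the kinases MEK and ERK, and stress signals through parallel routes to p38 and JNK. Dual-specificity phosphatases of this kind remove the activating phosphates from ERK, p38 and JNK, while Sprouty and Spred proteins hold back the pathway nearer to Ras and Raf. Many of these genes are themselves transcribed in response to active ERK or to stress, so that their mRNA forms a negative feedback and is widely read as a sign of recent pathway activity.

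The promoter sequences of *Dusp1*, *Dusp5* and *Dusp6* are shown, a choice made after the values were seen. *Dusp1* is shown because it set the question. Of the other genes, only *Dusp5* and *Dusp6* had 95% intervals (CBD against vehicle) below 0 at 6 h and above 0 at 24 h. Promoters of 8 of the 10 genes were found in the RefSeq promoter table (GRCm38.p6). Motifs were searched on both strands in the 250 bases before the start: the cAMP response element (CRE) TGACGTCA and its core TGACG, which lies inside the full element on each strand, the AP-1 site TGANTCA, the ETS core CGGAAG and the CArG box bound by serum response factor. Sequences are printed on the strand of the gene, 5′ to 3′, without bases that GENCODE M21 places in an exon of the gene, and capitals mark motif matches. *Dusp1* is shown from chr17:26508520-26508722 (minus strand), *Dusp5* from chr19:53528895-53529108 (plus strand) and *Dusp6* from chr10:99262981-99263230 (plus strand).
Dusp1: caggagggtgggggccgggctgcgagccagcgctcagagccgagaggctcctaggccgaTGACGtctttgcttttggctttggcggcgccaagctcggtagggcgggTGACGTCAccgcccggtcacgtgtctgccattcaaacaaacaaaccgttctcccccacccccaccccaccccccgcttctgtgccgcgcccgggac
Dusp5: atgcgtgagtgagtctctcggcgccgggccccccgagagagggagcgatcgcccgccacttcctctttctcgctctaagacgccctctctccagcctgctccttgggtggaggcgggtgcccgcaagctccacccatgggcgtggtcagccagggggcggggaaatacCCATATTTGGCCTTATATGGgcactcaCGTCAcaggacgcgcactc
Dusp6: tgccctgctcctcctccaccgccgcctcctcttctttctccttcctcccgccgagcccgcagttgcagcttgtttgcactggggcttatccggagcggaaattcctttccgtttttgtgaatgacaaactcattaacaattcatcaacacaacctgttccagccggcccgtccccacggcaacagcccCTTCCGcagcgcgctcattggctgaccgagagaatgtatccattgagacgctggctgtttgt
The *Dusp1* window held 1 full CRE, at position -143 from the start, and a separate core at -191. Of all 32851 promoters of this length, 1.55% held a full CRE and 17.8% held the core. The *Dusp5* window held 2 adjacent CArG boxes, at -82 and -72, and a CRE core on the other strand at -55, and a CArG box was found in 1.47% of promoters. In the *Dusp6* window 1 ETS core stood on the other strand at -62, against 13.6% of promoters with that motif. These cores were not particular to the genes shown. A CRE core was also found in the windows of *Dusp16* (-70) and *Spred2* (-51), and an ETS core in those of *Spred1* (-17) and *Spred2* (-43). The AP-1 site, present in 6.75% of promoters, was found in none of the 8 windows of these genes. These are matches of letters, not measured binding sites, and the files hold no measurement of transcription factors.

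Each library held between 1839621 and 4420675 reads on genes. Levels are given as CPM, read counts divided by the TMM-scaled library size within each time, and 3 reads corresponded to between 0.672 and 1.65 CPM on that scale. All 10 genes passed the filter on low counts at both times, but *Spred2* rested on 1 to 36 reads per library, *Spry4* on 1 to 34 and *Dusp10* on 2 to 57, and their values are imprecise. Neuronal markers of the labelled line were detected in part: *Tubb3* at 28.1 to 66.2 CPM and *Map2* at 8.97 to 36.3 CPM, while *Snap25* was at 0 in 28 libraries and *Rbfox3* in 15. Collagen *Col1a1* was at 1766 to 2512 CPM, *Aqp4* and *Sox10* were at 0 in all 30 libraries, *Cx3cr1* was at 2.95 to 30.8 CPM, and the part of cell composition in the results was not tested. In these bulk libraries, fewer cells that express a gene and less RNA per cell cannot be told apart. Vehicle library 3 of 6 h stood apart for this gene set, as described below, but the difference was not particular to these genes. Over all genes, its chi-square per gene was 10.73 against vehicle library 1 and 9.695 against vehicle library 2. Vehicle libraries 1 and 2 of 6 h gave 2.15 against each other, and pairs in other groups reached 9.314. This chi-square is not free of depth where libraries differ beyond counting noise, and library 3 held the most reads of its group. The part of depth in these values was not tested. The 6 h values, the time differences and the vehicle values that library 3 moved are also given without it.

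**Figure D1:**
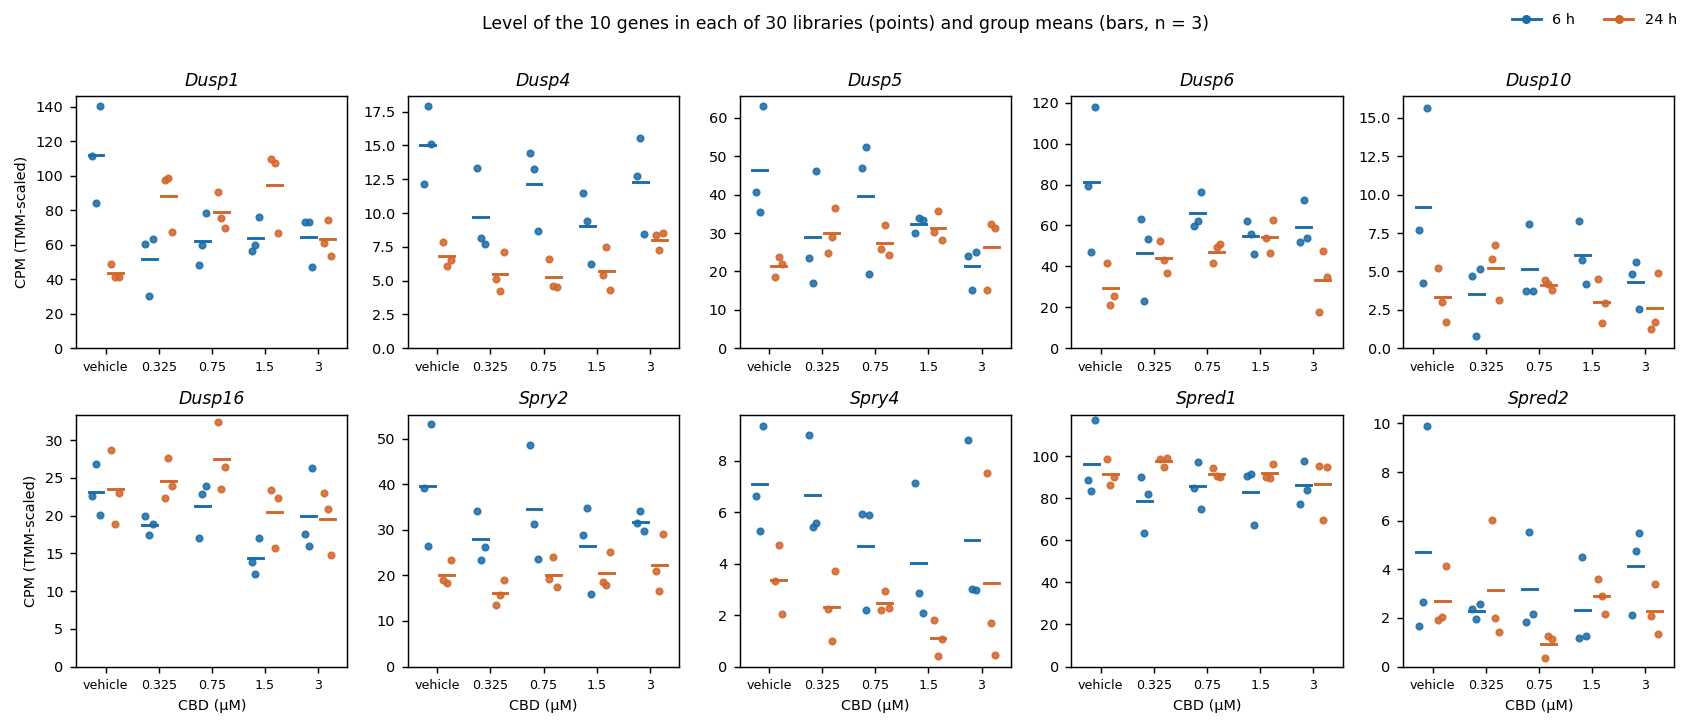
Level of each gene (CPM, TMM-scaled within a time; linear axes from 0) against CBD dose at 6 h (blue) and 24 h (orange), with 1 point per library and a bar at the mean of 3 libraries. For Dusp1 the 12 CBD libraries lie below all vehicle libraries at 6 h and above all of them at 24 h, while for the other 9 genes the CBD and vehicle libraries overlap at both times.

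*Dusp1* (ENSMUSG00000024190, chromosome 17) encodes a nuclear phosphatase of p38, JNK and ERK that is induced within minutes by growth factors and stress. At 6 h the vehicle libraries were at 111, 84.4 and 141 CPM. Libraries given 0.325 µM CBD were at 60.7, 30.3 and 63.7 CPM, those given 0.75 µM at 48.5, 60.1 and 78.6 CPM, those given 1.5 µM at 56.2, 59.7 and 75.9 CPM, and those given 3 µM at 73.1, 73.5 and 47.0 CPM. All 12 CBD libraries of 6 h thus lay below all 3 vehicle libraries, with the lowest value at 0.325 µM. The mean of the 4 doses against vehicle gave a log2 fold change of -0.90 (standard error 0.18), or -0.69 without vehicle library 3.

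At 24 h the order of *Dusp1* was the opposite. Vehicle libraries were at 49.1, 41.2 and 41.2 CPM. They compare with 97.6, 98.9 and 67.7 CPM at 0.325 µM, 90.9, 75.8 and 69.9 CPM at 0.75 µM, 109, 107 and 66.6 CPM at 1.5 µM, and 61.0, 74.7 and 53.7 CPM at 3 µM. All 12 CBD libraries lay above the 3 vehicle libraries, and the group at 3 µM was the nearest to vehicle. The log2 fold change was 0.86 (standard error 0.15) over the 4 doses. By rising dose it was 1.004, 0.84, 1.09 and 0.52. Over all genes tested, 0.733% had all CBD libraries below vehicle at 6 h and 0.33% had all of them above vehicle at 24 h, and among the 10 genes *Dusp1*, which was chosen for this pattern, was the only one in either class. In GENCODE M21 (GRCm38) the *Dusp1* gene model spans chr17:26505590-26562128 and overlaps 4 other genes, among them *Ergic1* on the opposite strand, and the strand setting of the counting is not given in the sources used here.

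*Dusp5* (ENSMUSG00000034765, chromosome 19), a nuclear phosphatase specific for ERK, was the gene closest to that order among the other 9. Its 6 h libraries were at 40.8, 35.4 and 63.2 CPM in vehicle, 23.5, 17.1 and 46.0 CPM at 0.325 µM, 47.0, 52.4 and 19.3 CPM at 0.75 µM, 30.1, 33.9 and 33.3 CPM at 1.5 µM, and 23.9, 15.1 and 25.01 CPM at 3 µM. Of the 12 CBD libraries 9 lay below all vehicle libraries, and the 3 libraries at 3 µM were all below. At 24 h the vehicle libraries were at 18.5, 23.6 and 21.96 CPM, against 24.9, 28.9 and 36.4 CPM at 0.325 µM, 25.8, 32.0 and 24.2 CPM at 0.75 µM, 30.2, 35.7 and 28.1 CPM at 1.5 µM, and 15.04, 32.4 and 31.3 CPM at 3 µM. There 11 of 12 CBD libraries lay above all vehicle libraries, and library 1 at 3 µM lay below them. The log2 fold change over the doses was -0.66 (standard error 0.25) at 6 h and 0.43 (standard error 0.19) at 24 h. Neither passed the threshold of 0.1 on the false discovery rate (FDR, Benjamini-Hochberg over all genes tested, from the edgeR quasi-likelihood fit), with FDR = 0.302 at 6 h and FDR = 0.716 at 24 h. The 6 h value was -0.35 (FDR = 0.655) without vehicle library 3. An annotated antisense gene, AC137853.2, overlaps *Dusp5*.

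*Dusp6* (ENSMUSG00000019960, chromosome 10), the cytoplasmic phosphatase of ERK and a standard readout of ERK activity, had values of the same sign pattern. In vehicle at 6 h it was at 79.3, 47.0 and 118 CPM, a spread in which most CBD libraries fell. The CBD libraries were at 63.1, 23.3 and 53.3 CPM for 0.325 µM, 60.0, 62.0 and 76.4 CPM for 0.75 µM, 62.1, 56.0 and 45.8 CPM for 1.5 µM, and 52.1, 72.2 and 53.8 CPM for 3 µM, so only 2 of 12 lay below all vehicle libraries. After 24 h vehicle libraries were at 41.5, 21.3 and 25.7 CPM. Those given CBD were at 52.6, 43.1 and 36.7 CPM for 0.325 µM, 41.6, 49.3 and 51.0 CPM for 0.75 µM, 54.1, 46.5 and 62.6 CPM for 1.5 µM, and 17.5, 47.4 and 34.9 CPM for 3 µM. At 24 h 9 of 12 CBD libraries were above all vehicle libraries and 1, library 1 at 3 µM, was below. The log2 fold change was -0.56 (standard error 0.21, edgeR FDR = 0.319) at 6 h and 0.56 (standard error 0.20, edgeR FDR = 0.604) at 24 h. Without vehicle library 3 the 6 h value was -0.16, and without vehicle library 1 the 24 h value was 0.91, neither past the threshold.

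*Dusp4* (ENSMUSG00000031530, chromosome 8), a nuclear phosphatase of ERK and JNK, did not share the higher values at 24 h. Vehicle libraries were at 12.1, 17.9 and 15.1 CPM at 6 h and 7.82, 6.08 and 6.52 CPM at 24 h. CBD libraries ranged from 6.25 to 15.6 CPM (median 10.4) at 6 h, with 7 of 12 below all vehicle libraries, and from 4.24 to 8.51 CPM (median 6.02) at 24 h. Its log2 fold change was -0.49 (standard error 0.26, edgeR FDR = 0.532) at 6 h and -0.19 (standard error 0.28, 95% interval -0.77 to 0.40) at 24 h.

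*Dusp10* and *Dusp16* encode phosphatases that act mainly on p38 and JNK. *Dusp10* (ENSMUSG00000039384, chromosome 1) was at 7.71, 4.22 and 15.7 CPM in vehicle at 6 h, against 0.777 to 8.31 CPM (median 4.78) in CBD libraries, a log2 fold change of -1.03 (standard error 0.40, edgeR FDR = 0.342). Without vehicle library 3 that value was -0.34. At 24 h vehicle was at 5.21, 3.04 and 1.72 CPM and CBD libraries at 1.25 to 6.73 CPM, with a log2 fold change of 0.08 and a 95% interval from -0.81 to 0.96. The protein-coding gene *1700056E22Rik* overlaps *Dusp10* on the opposite strand. *Dusp16* (ENSMUSG00000030203, chromosome 6) was at 22.6, 26.9 and 20.04 CPM in vehicle and 12.3 to 26.3 CPM (median 17.5) in CBD libraries at 6 h, where 9 of 12 lay below all vehicle libraries (log2 fold change -0.32, standard error 0.20, edgeR FDR = 0.631). At 24 h it was at 28.7, 18.9 and 22.98 CPM in vehicle and 14.8 to 32.4 CPM in CBD libraries, with a log2 fold change of -0.05 (95% interval -0.41 to 0.31).

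Among the inhibitors that act nearer to Ras and Raf, none had a fitted value above 0.1 at 24 h over the mean of the 4 doses. *Spry2* (ENSMUSG00000022114, chromosome 14), a Sprouty protein that restrains signalling from growth factor receptors, was at 39.1, 26.4 and 53.3 CPM in vehicle at 6 h and 15.8 to 48.5 CPM (median 30.5) in CBD libraries, with a log2 fold change of -0.43 (standard error 0.22, edgeR FDR = 0.516), or -0.12 without vehicle library 3. At 24 h it was at 18.96, 18.2 and 23.3 CPM in vehicle and 13.4 to 29.1 CPM (median 18.8) with CBD, a log2 fold change of -0.04 (95% interval -0.42 to 0.34). *Spred1* (ENSMUSG00000027351, chromosome 2), whose protein brings neurofibromin to Ras, had the narrowest intervals of the 10 genes. It was at 88.7, 83.4 and 117 CPM in vehicle and 63.3 to 97.7 CPM with CBD at 6 h (log2 fold change -0.22, standard error 0.14, or -0.045 without vehicle library 3). At 24 h it was at 98.6, 86.4 and 89.9 CPM in vehicle and 69.5 to 99.0 CPM with CBD, and the 95% interval of its log2 fold change ran from -0.21 to 0.21.

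*Spry4* (ENSMUSG00000024427, chromosome 18), another Sprouty gene induced by growth factors, was at 6.61, 5.28 and 9.34 CPM in vehicle and 2.08 to 9.01 CPM with CBD at 6 h. At 24 h it was at 3.32, 4.73 and 2.06 CPM in vehicle and 0.415 to 7.52 CPM with CBD. Its log2 fold change was -0.52 (standard error 0.40, or -0.23 without vehicle library 3) at 6 h and -0.66 (standard error 0.51, edgeR FDR = 0.905) at 24 h, the same sign at both times. *Spred2* (ENSMUSG00000045671, chromosome 11), a further inhibitor of Ras to ERK signalling, was at 1.65, 2.64 and 9.88 CPM in vehicle at 6 h and 1.90, 2.03 and 4.12 CPM at 24 h. Its CBD libraries lay between 1.19 and 5.53 CPM at 6 h and between 0.368 and 6.05 CPM at 24 h. Its log2 fold change at 6 h, -0.83 (standard error 0.50), was 0.41 without vehicle library 3, so that its direction rested on that library.

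**Figure D2:**
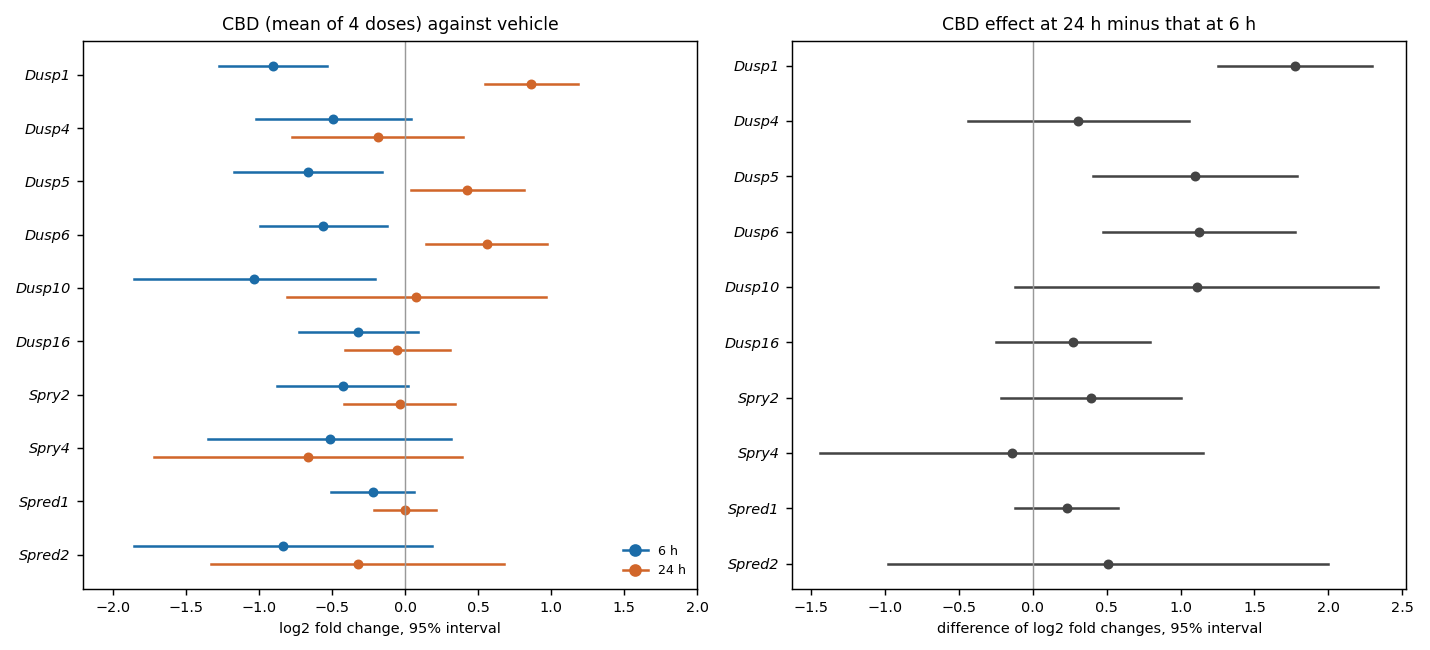
Left, log2 fold change of CBD (mean of 4 doses) against vehicle with its 95% interval for each gene at 6 h (blue) and 24 h (orange). Right, the 24 h value minus the 6 h value with its 95% interval. Points for all 10 genes are below 0 at 6 h, the intervals of Dusp1, Dusp5 and Dusp6 are above 0 at 24 h, and the interval of Dusp1 is a description because the gene was chosen for this pattern.

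Over the 4 doses together, 0 of the 9 genes other than *Dusp1* passed the threshold at 6 h, where 0.749% of the 12012 genes tested did. At 24 h it was 0 of 9, with 0.107% of 12118 genes. At an unadjusted p under 0.05 there were 3 of 9 at 6 h (*Dusp5*, *Dusp6* and *Dusp10*), beside 10.3% of all genes, and 2 of 9 at 24 h (*Dusp5* and *Dusp6*), beside 6.73%. DESeq2 called 0 of 9 at either time. The fitted values of all 9 were negative at 6 h, with a median log2 fold change of -0.52 and a range from -1.03 to -0.22, while the median over all genes was -0.0189 and 53.5% of all genes were negative. Without vehicle library 3 of 6 h 8 of the 9 were negative, with a median of -0.23 and a range from -0.49 to 0.41. At 24 h 4 of the 9 were positive and 5 negative, with a median of -0.04, beside 48.6% of all genes positive. These 9 values share the same 3 vehicle libraries and are not independent of each other or of *Dusp1*. With no filter on low counts, *Dusp5* (FDR = 0.0362) and *Dusp6* (FDR = 0.034) passed the threshold at 6 h.

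Each dose was also set against vehicle. At 6 h 0 of 9 genes passed at each dose, where the share of all genes called was 0.2%, 0.0749%, 0.0999% and 0.05% by rising dose. Unadjusted p-values under 0.05 were found for 3, 0, 4 and 2 of the 9 genes in that order, beside 8.8%, 7.79%, 7.91% and 7.26% of all genes. All 9 fitted values were negative at each of the 4 doses, as were those of 26.4% of all genes. Each dose was set against the same vehicle libraries, library 3 of 6 h included, and single-dose values are not given without it. The lowest at 0.325 µM were *Dusp10* at -1.44 (standard error 0.56) and *Spred2* at -1.15 (standard error 0.68). *Spred2* was at 1.65, 2.64 and 9.88 CPM in vehicle libraries 1, 2 and 3, and at 1.94 to 2.58 CPM at this dose. *Dusp10* was at 7.71, 4.22 and 15.7 CPM in the same vehicle libraries, and library 2 at 0.325 µM held 2 reads of it. *Dusp6* at 0.325 µM was -0.83 (standard error 0.28, edgeR FDR = 0.318). At 3 µM *Dusp5* was -1.13 (standard error 0.33, edgeR FDR = 0.337).

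For the 24 h libraries 0 of 9 genes passed at each dose, with 0.066%, 0.0825%, 0.0413% and 0.00825% of all genes called by rising dose. Unadjusted p-values under 0.05 were found for 2, 1, 3 and 0 of the 9 genes, beside 8.33%, 7.63%, 7.34% and 9.16% of all genes. By rising dose, the log2 fold change of *Dusp6* was 0.56, 0.66, 0.87 (standard error 0.25, edgeR FDR = 0.446) and 0.15. For *Dusp5* the values were 0.49, 0.36, 0.55 and 0.30 at the same doses, and for *Spry4* -0.55, -0.45, -1.60 (standard error 0.76) and -0.04. *Dusp4* went from -0.32, -0.37 and -0.28 at the lower doses to 0.23 at 3 µM (standard error 0.37).

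A test by edgeR of any difference among the 4 doses called 0 of 9 genes at 6 h, where it called 0% of all genes (452 had an unadjusted p under 0.05), and 0 of 9 at 24 h, where it called 1.93%. None of the 9 had an unadjusted p under 0.05 in either test, beside 3.76% of all genes at 6 h and 14.5% at 24 h. When 3 µM was set against the mean of the 3 lower doses at 24 h, 0 of 9 passed by edgeR beside 10.5% of all genes. At an unadjusted p under 0.05 it was 1 of 9, a smaller share than the 21.6% of all genes. That gene, *Dusp6*, was lower at 3 µM (log2 fold change -0.55, standard error 0.21, edgeR FDR = 0.127) and passed the threshold with DESeq2. *Dusp1* had a value of -0.46 in the same contrast, *Dusp4* 0.55 (standard error 0.30) and *Spry4* 0.82 (standard error 0.58). The share of reads outside genes moved with these groups at 24 h, at 20.9 to 22.2% in vehicle, 20.8 to 21.7% at 3 µM and 18.7 to 20.4% at the lower doses, and with that share as a covariate the contrast called 30 genes of all in place of 1275. Its part in the values of the 10 genes was not tested beyond that fit.

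The difference between the times was tested directly, as the CBD effect at 24 h minus that at 6 h over all 30 libraries. *Dusp1* had a difference of 1.77 (standard error 0.26) on the log2 scale, given as a description. Of the other 9 genes 0 passed the threshold, beside 0.235% of the 12790 genes tested. *Dusp6* had a difference of 1.12 (standard error 0.32, 95% interval 0.47 to 1.77, edgeR FDR = 0.241) and *Dusp5* one of 1.10 (standard error 0.34, 95% interval 0.41 to 1.79, edgeR FDR = 0.319). These were the 2 of 9 with an unadjusted p under 0.05, beside 6.52% of all genes. *Dusp10* was at 1.11 with a standard error of 0.61 and an interval that included 0 (-0.12 to 2.34). *Spred2* was at 0.51 (standard error 0.74), *Spry2* at 0.39 (0.30), *Dusp4* at 0.31 (0.37), *Dusp16* at 0.27 (0.26), *Spred1* at 0.23 (0.17) and *Spry4* at -0.14 (0.64), with standard errors in parentheses. The difference was positive for 8 of 9 genes with a median of 0.39, while 52.3% of all genes were positive. It was positive for 7 of 9, with a median of 0.30, without vehicle library 3 of 6 h.

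Whether *Dusp5* and *Dusp6* pass depended on the settings. With no filter on low counts, their time differences were 1.06 (FDR = 0.0201) and 1.09 (FDR = 0.000874). *Dusp6* also passed without vehicle library 2 of 6 h (1.39, FDR = 0.0918) and without library 1 at 3 µM of 24 h (1.20, FDR = 0.0706). Without vehicle library 3 of 6 h the differences were 0.73 for *Dusp6* (FDR = 0.618), 0.78 for *Dusp5* (FDR = 0.626) and 1.56 for *Dusp1*, all still positive. In the same fit *Dusp10* was at 0.42, *Spry2* at 0.09, *Spred1* at 0.05, *Spry4* at -0.43 and *Spred2* at -0.73. Under DESeq2 the difference was 1.12 for *Dusp6* (FDR = 0.372) and 1.08 for *Dusp5* (FDR = 0.251).

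**Figure D3:**
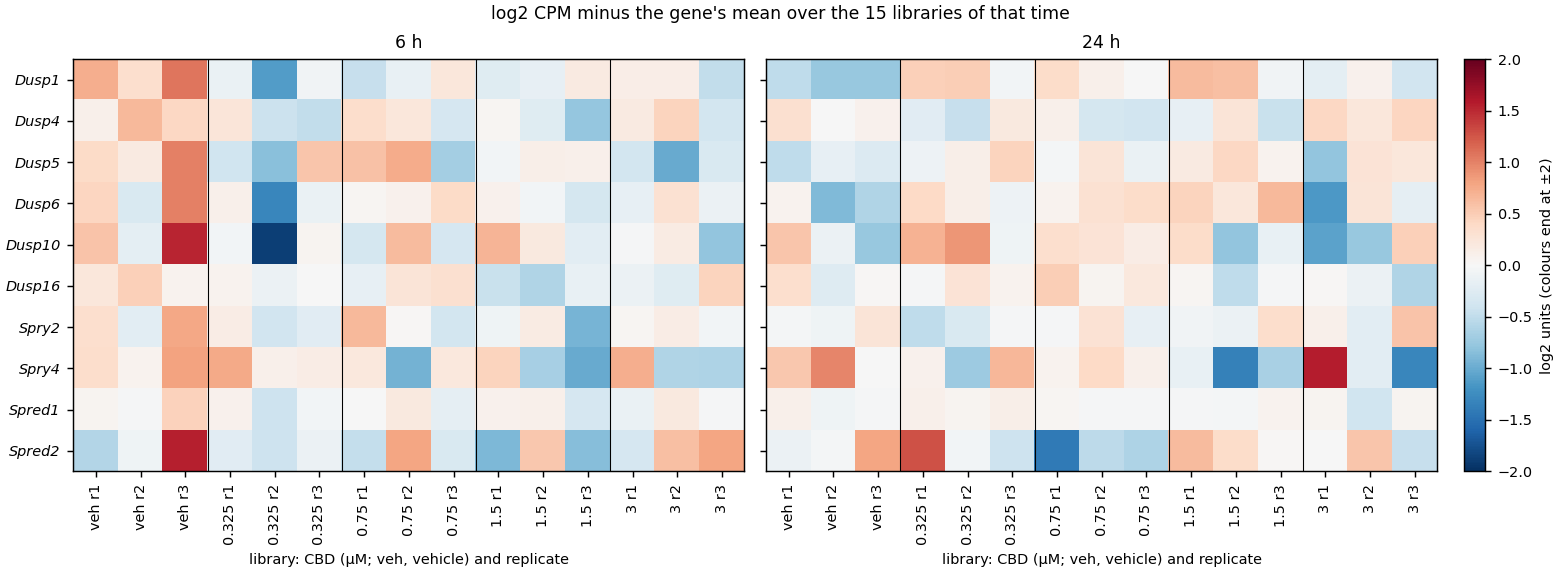
Deviation of each library's log2 CPM from the mean of the gene over the 15 libraries of that time, with libraries in columns by dose and replicate and genes in rows. Red is above and blue below the mean. Vehicle library 3 of 6 h is above the mean for 10 of 10 genes, and library 2 at 0.325 µM of 6 h is below it for 9 of 10.

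The plot of library deviations shows how far single libraries carried the 6 h values. Vehicle library 3 of 6 h was above the mean of the 15 libraries of that time for 10 of 10 genes, with a median deviation of 0.91 on the log2 scale, and was the highest of its group for 8 of 10. Vehicle library 1 had a median deviation of 0.35 and vehicle library 2 one of 0.02. At 0.325 µM of 6 h, library 2 was the lowest of its group for 9 of 10 genes, with a median deviation of -0.42. Vehicle library 3 also had 3574833 reads on genes, against 1839621 and 1919498 in the other 2 vehicle libraries of 6 h, and 17.9% of its reads outside genes against 21.4% and 20.8%. The part of depth and of that share in the levels was not tested apart from the fit with the share as a covariate, in which the 6 h value of *Dusp6* was -0.59 (FDR = 0.0434) and that of *Dusp5* was -0.67 (FDR = 0.147). At 24 h no library was above or below the mean for all 10 genes, although vehicle library 2 was below it for 9 of 10, and the median deviations ranged from -0.10 in that library to 0.19 in library 2 at 0.75 µM.

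More of these genes passed the threshold between the times than between CBD and vehicle, and the same held for all genes. Of all genes, 26.7% passed between the times in vehicle and 53.6% with CBD. For CBD against vehicle it was 0.749% at 6 h and 0.107% at 24 h. In vehicle, 5 of the 9 genes fell from 6 h to 24 h (log2 fold changes fitted on all 30 libraries), beside 26.7% of all genes called in either direction and 14.2% called lower. These were *Dusp6* (-1.51, standard error 0.29, edgeR FDR = 0.000302), *Dusp5* (-1.19, standard error 0.30, edgeR FDR = 0.00468), *Spry2* (-1.04, standard error 0.27, edgeR FDR = 0.00496), *Dusp4* (-1.17, standard error 0.33, edgeR FDR = 0.00887) and *Dusp10* (-1.52, standard error 0.53, edgeR FDR = 0.0393). The vehicle libraries of *Dusp10*, although it was called, overlapped between the times. *Dusp1* had a value of -1.40 (standard error 0.23). The remaining values were -1.13 for *Spry4* (standard error 0.59), -0.99 for *Spred2* (standard error 0.63), -0.12 for *Spred1* (standard error 0.15) and 0.00 for *Dusp16* (95% interval -0.46 to 0.46). Without vehicle library 3 of 6 h 4 of 9 genes passed, in a fit that called 2652 genes of all. *Dusp10*, at -0.81 (FDR = 0.418), did not pass. *Dusp5* was then at -0.86 and *Dusp6* at -1.10. Markers of cell types moved in the same contrast, with 1 of 1 tested astroglial gene and 2 of 4 mesenchymal genes called higher, 1 of 2 microglial genes called lower, and 1 of 6 neuronal genes called higher and 2 lower. The summed level of the 4 astroglial markers went from 0.556 to 1.39 CPM in vehicle of 6 h to 3.65 to 5.82 CPM at 24 h, with *Aqp4* at 0 throughout. This sum was mostly *Slc1a3*, with 295 reads over all 30 libraries, against 45 for *Aldh1l1* and 2 for *Gfap*. Its 6 h vehicle values stood near the level of 3 reads. The 8 neuronal markers summed to 153.5 to 187.3 CPM at 6 h and 137.7 to 141.9 CPM at 24 h, the 4 mesenchymal markers to 3669 to 4307 CPM and 4006 to 4772 CPM, and the 4 microglial markers to 23.05 to 54.5 CPM and 20.96 to 25.3 CPM. In CBD libraries the astroglial sum was 1.50 to 7.87 CPM at 6 h and 1.77 to 11.65 CPM at 24 h. Its 6 h values with CBD all lay above those of vehicle, while the sums of the other marker lists overlapped with vehicle at 6 h. For CBD against vehicle over the 4 doses, no tested marker was called at either time. The part of these marker shifts in the values of the 10 genes was not tested.

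The same contrast in CBD-treated cells called 5 of 9 genes, of which 4 were lower and 1 higher at 24 h, beside 53.6% of all genes, 27.6% lower and 26% higher. *Spry4* (-1.28, standard error 0.33, edgeR FDR = 0.0016), *Dusp4* (-0.87, standard error 0.17, edgeR FDR = 7.64e-05), *Spry2* (-0.65, standard error 0.14, edgeR FDR = 0.00018) and *Dusp6* (-0.39, standard error 0.14, edgeR FDR = 0.0266) were lower, and *Dusp16* was higher (0.27, standard error 0.12, edgeR FDR = 0.0538). *Dusp5* was at -0.10 (95% interval -0.41 to 0.22) and *Dusp10* at -0.41 (95% interval -0.99 to 0.18). *Dusp1* had a value of 0.37 (standard error 0.11), above 0, beside -1.40 in vehicle. With no filter on low counts *Dusp16* was no longer called. The time difference given above is this CBD value minus the vehicle value. For *Dusp5* and *Dusp6* it holds a large fall in vehicle and a smaller fall or none with CBD. For *Dusp1* it holds a large fall in vehicle and a higher value at 24 h with CBD. The vehicle values rest on 3 libraries per time and the CBD values on 12.

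**Figure D4:**
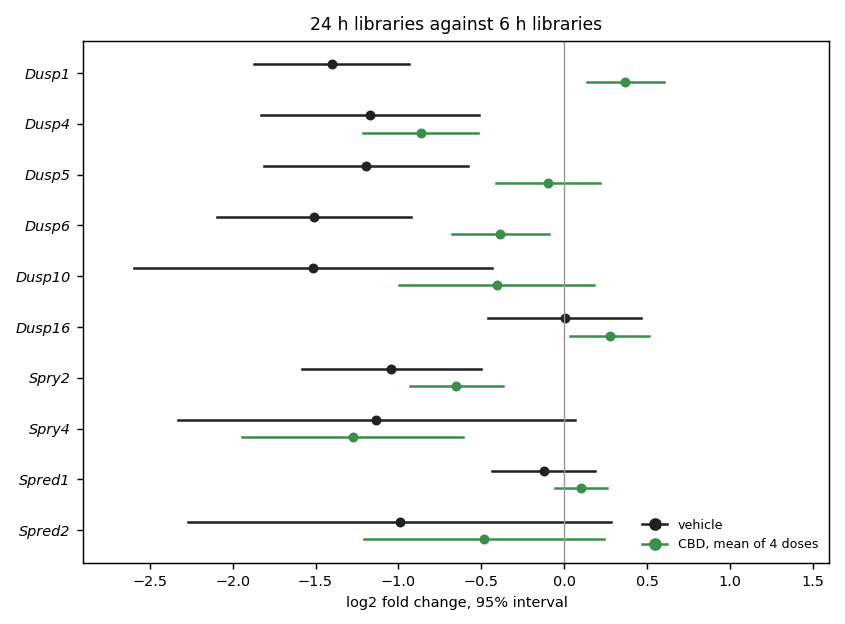
Log2 fold change of 24 h against 6 h libraries with its 95% interval for each gene, in vehicle (black) and in CBD-treated cells (green, mean of 4 doses). In vehicle 5 of the 9 tested genes were lower at 24 h (Dusp4, Dusp5, Dusp6, Dusp10 and Spry2), and Dusp1 has a positive value with CBD and a negative one in vehicle.

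Other genes of the pathway were read from fixed lists. Of the other MAP kinase phosphatases *Dusp2*, *Dusp7*, *Dusp8* and *Dusp9*, 0 of 4 passed for CBD at either time or for the time difference. In vehicle 2 of these 4 fell from 6 h to 24 h, beside 14.2% of all genes called lower. *Dusp2*, a nuclear phosphatase of activated immune cells, fell by 1.33 on the log2 scale (standard error 0.54, edgeR FDR = 0.0762). *Dusp9*, an ERK phosphatase, fell by 0.76 (standard error 0.20, edgeR FDR = 0.00543). Of the 10 genes listed as transcriptional output of ERK, 9 were tested at 6 h and 1 passed, beside 0.749% of all genes. It was *Ier3*, an immediate-early gene, at -0.52 with CBD (standard error 0.13, edgeR FDR = 0.0677). At 24 h 0 of 8 passed, with *Ier3* at 0.10, and its time difference was 0.62 (standard error 0.19, edgeR FDR = 0.31). The median of this list was -0.31 at 6 h and -0.01 at 24 h.

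In vehicle 5 of 9 tested genes of ERK output fell over time, beside 14.2% of all genes called lower, *Myc* by 1.89, the cyclin *Ccnd1* by 1.45, *Plaur* by 1.21, the ETS factor *Etv4* by 0.86 and *Ier3* by 0.75. With CBD 6 of 9 fell, beside 27.6% of all genes, among them *Ccnd1* by 1.24 and *Etv4* by 0.72. Of 4 receptor-level feedback genes, *Errfi1*, an inhibitor of the epidermal growth factor receptor, fell by 0.93 in vehicle (standard error 0.24, edgeR FDR = 0.00475). In the list of Ras activation 0 of 14 genes passed for CBD at 6 h or at 24 h, and neither did any of 10 ERK cascade kinases, whose median log2 fold changes were 0.08 at 6 h and -0.02 at 24 h. For p38 and JNK cascade kinases it was 0 of 12 at 6 h and 0 of 14 at 24 h. At 3 µM against the lower doses at 24 h, 2 of 8 tested genes of ERK output were called, *Etv4* (0.77) and *Ccnd1* (0.47), both higher. Also called higher were 3 of 14 genes of Ras activation (*Nf1*, *Hras* and *Ptpn11*) and 1 of 10 ERK cascade kinases (*Ksr1*), at 0.36 to 0.48. None of 14 p38 and JNK cascade kinases was called. The same contrast called 10.5% of all genes, and that count fell from 1275 to 30 once the percent of reads assigned to no gene entered the fit.

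As a description of likeness, each gene's 10 group means of log2 CPM were centred and set against those of *Dusp1* by the root mean square (RMS) difference, over 12789 genes with a median of 0.466. *Dusp5* was the nearest of the other 9 genes, at 0.296 (place 87), followed by *Spred1* at 0.332 (place 339) and *Dusp6* at 0.362 (place 943). The profile of *Spred1* was flat, with centred means between -0.16 and 0.13. *Dusp16* (0.386), *Dusp10* (0.407), *Spry2* (0.522), *Spred2* (0.525), *Dusp4* (0.61) and *Spry4* (0.806) followed. The nearest genes of all were *Mknk1*, a kinase activated by ERK and p38, at 0.202, *Ermard* at 0.204, the predicted genes *Gm5396* at 0.209 and *Gm10736* at 0.225, and the zinc transporter *Slc30a6* at 0.232. These points share all libraries and the distance was computed with *Dusp1* as the reference, so it carries no test.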

How the data were processed

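3′ mRNA-Seq libraries (QuantSeq FWD) of 30 samples of mHypoA-2/12 cells were analysed, 3 per group. Per the methods of the study, the authors trimmed reads with Flexbar, mapped them with STAR to GRCm39 and deposited raw counts per Ensembl gene from HTSeq-count, 1 table per library with no normalization. The processing notes of the submitters give STAR 2.7.5c, HTSeq 1.99.2 and FastQC 0.11.9. Summary lines of the tables were left out of the gene counts. Symbols came from GENCODE M21 (GRCm38) and named 51948 of 56941 genes.

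Counts were fitted in R 4.3.3 with edgeR 4.0.16 (filterByExpr on the groups, TMM, quasi-likelihood F-test), in 15 libraries per time or in all 30 for contrasts between times, with p-values adjusted by Benjamini-Hochberg across every tested gene and called at 0.1. Levels are CPM on TMM-scaled library sizes, and log2 CPM for the profiles used a prior count of 2. Pairs of libraries of a group differed by more than counting noise (chi-square per gene 2.13 to 10.7). The steps were tested on simulated data.

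The genes named are the 10 genes, members of the pathway lists, those that passed the threshold with their values, and the 5 genes nearest to *Dusp1*. Genes, lists and tests were chosen with earlier results of these data known. Alternatives were DESeq2 1.42.0, RLE scaling, no filter, at least 10 counts in every library, only the groups compared, a covariate for the percent of reads assigned to no gene, and each library left out in turn. Promoters of *Dusp4* and *Spry4* were not used here. Floors cover counting error only.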

Additional observations from a re-analysis of the deposited data

Results flagged for a closer look

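*Dusp1* was the only one of the 10 genes whose CBD libraries all lay on one side of the vehicle libraries at 6 h and all on the other side at 24 h: 12 of 12 below at 6 h and 12 of 12 above at 24 h. The log2 fold change of CBD against vehicle at 24 h minus that at 6 h was 1.772. The difference was not tested for this gene, which was chosen for it. It ranged from 1.56, without vehicle library 3 of 6 h, to 1.936, without vehicle library 2 of 6 h, over the fits that left out 1 library. No group held enough libraries for a check of single outlying values.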

How the results depend on the processing

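No paired analysis was possible because no replicate number in the labels links libraries of different groups. Of the 9 genes other than *Dusp1*, the number called at 6 h over the doses was 0, but 2 with no filter (*Dusp5* and *Dusp6*) and 1 with a covariate for the percent of reads assigned to no gene (*Dusp6*), and the same 2 and 1 held for single doses at 6 h. For single doses at 24 h it was 0, but 1 with no filter (*Dusp6*). For the time difference it was 0, but 2 with no filter. Among the doses at 24 h it was 0, but 1 with no filter, and for 3 µM against the lower doses 0, but 1 with DESeq2 and 1 with no filter (*Dusp6* each time). Leaving out each library gave 0 to 1 for the time difference, 0 to 1 among the doses at 24 h, 0 to 1 for 3 µM against the lower doses and 4 to 5 for vehicle at 24 h against 6 h. *Dusp10* lost its call in the last contrast without vehicle library 3 of either time and with the covariate (-1.07).

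Of the signs that turned, none belonged to a value past the threshold. With the covariate, *Spry2* at 24 h was 0.23 and *Spred1* -0.0872, and in vehicle over time *Dusp16* was -0.0380 and *Spred1* 0.0308. With at least 10 counts in every library *Spred1* at 24 h was -0.0035. With the covariate *Dusp5* at 24 h moved from 0.43 to 0.79, *Spry4* from -0.66 to -1.55 and *Spred2* from -0.32 to -0.079 (FDR = 1 each). Leaving out single libraries, *Dusp10* at 24 h ranged from -0.21 to 0.59, *Dusp16* from -0.18 to 0.13, *Spred1* from -0.036 to 0.058 and *Spry2* from -0.098 to 0.078. Vehicle over time ranged from -0.16 to 0.145 for *Dusp16*, from -0.21 to 0.0681 for *Spred1* and from -1.39 to 0.26 for *Spred2*. At 6 h *Spred2* ranged from -1.19 to 0.41. Time differences ranged from -0.53 to 0.15 for *Spry4* and from -0.73 to 0.92 for *Spred2*. The highest or lowest value of *Spred2* opposite in sign to the rest was each time the one without vehicle library 3 of 6 h, and *Dusp1* at 6 h was then -0.69.

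Over all genes, 90 were called at 6 h, 263 with no filter and 329 with the covariate. At 24 h 13 were called, 29 with DESeq2, 46 with no filter, 7 with only the groups compared and 0 with the covariate. For the time difference 30 were called, 49 with DESeq2 and 87 with no filter. Leaving out each library gave 51 to 304 at 6 h (304 without vehicle library 3), 1 to 47 at 24 h, 2 to 45 for the time difference, 68 to 2303 for 3 µM against the lower doses (2303 without library 2 at 3 µM) and 9 to 1085 among the doses at 24 h. With 3 libraries per group and 2 to 57 reads for *Dusp10*, changes in the genes with few reads were not detectable at this depth unless large.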
